A study of Homo sapiens with 18 samples.

Results

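In the peak lists as deposited, MAX peaks that occurred in both MYC mutants and not in wild type were rare, weak and mostly far from gene starts. Their number and position depended on the lists entered. With the lists cut to equal length, 2688 peaks met the same description within the cut lists, and 21.5% of them were at gene ends. Only 336 of the 2688 met it with the full lists. The cut shortened the WT list, and a shorter WT list overlaps less by construction. Of the 27294 MAX peaks listed for the 3A mutant of MYC, 453 (1.66%) shared at least 1 bp with a peak of the 7A mutant list and none with any peak of the wild-type (WT) list. These 453 regions are described here. They were chosen by presence in 3 peak lists, so their absence from the WT list and their presence in both mutant lists are the choice itself and not a result. Their strength is not independent of that choice either, because peaks enter a list by their strength. The strongest lay inside ZBTB38, with a fold enrichment of 37.96 in 3A and 41.7 in 7A, and 42 of the 453 had a summit within 1000 bp of an end of a protein-coding gene.

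The cells were U2OS, a human osteosarcoma line, in which the cells' own MYC was knocked out and a doxycycline-inducible MYC was put back as the 3A mutant, the 7A mutant or WT. Each form was profiled after 24 h with Dox at 1 µg/ml and after 24 h with PBS and no Dox, which makes 6 groups: 3A with Dox, 3A without, 7A with Dox, 7A without, WT with Dox and WT without. All 6 carry the MYC knockout and the Tet-On construct, and 10% of mouse NIH3T3 cells were mixed into each as a reference genome (ChIP-Rx). There were 18 libraries, with 2 MAX immunoprecipitations and 1 input in each group. The antibody field names MAX, whereas the protocol text speaks of anti-FLAG. The sources used here do not say which residues the names 3A and 7A stand for, or whether each line is 1 clone. The data are 1 peak list per MYC form, with 27294 peaks for 3A, 25159 for 7A and 34622 for WT. No list separates replicates or Dox from no Dox, so there was no replicate check and no test between MYC forms, and the 95% intervals below are exact binomial (Clopper-Pearson) intervals that cover counting error only. Peak lists hold no expression, so the cell line was not checked against markers.

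MAX is a basic helix-loop-helix leucine zipper protein that binds DNA as a dimer, and it is the obligate partner of MYC. Its other partners, the MXD proteins, MNT and MGA, compete with MYC for it, so a MAX peak need not be a MYC peak. MYC and MAX dimers prefer the E-box CACGTG and sit mostly at active promoters with many CpG dinucleotides, and at high MYC levels also at enhancers with weaker sites. The motif TGANTCA, by contrast, is the site of AP-1, the FOS and JUN dimers that mark many distal enhancers.

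The promoters that such peaks reached are shown first, beside those of strong MAX peaks of all 3 lists, because they were few. Of the 453 regions, 34 (7.51%) shared at least 1 bp with a RefSeq promoter window of 300 bases, which spans 250 before to 50 after a gene start. The share was 39.2% for peaks of all 3 lists and 26.2% for those of them about as strong as the 453. Peaks found in the 3A list alone had 7.12% and those in the 7A list alone 9.25%. The low share was therefore not particular to the regions of both mutants. The lines below give the 250 bases before the start, 5′ to 3′ on the strand of the gene (RefSeq, GRCh38.p14). Capitals mark CACGTG where it occurs and otherwise TGANTCA. ZBTB38 was the strongest region, LHFPL5, SLC29A1, BCL6 and ZNF836 were among the 20 strongest at gene ends, and S100A3 was, besides ZBTB38, the other protein-coding window with TGANTCA. ZFYVE27 and DHX40 carried peaks in all 3 lists and were among the 4 strongest 3A peaks at a promoter.
ZBTB38: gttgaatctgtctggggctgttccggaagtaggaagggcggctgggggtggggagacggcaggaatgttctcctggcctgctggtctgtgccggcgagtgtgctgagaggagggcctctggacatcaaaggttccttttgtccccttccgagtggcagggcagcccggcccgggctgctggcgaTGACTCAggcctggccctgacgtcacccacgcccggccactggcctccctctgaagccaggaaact
LHFPL5: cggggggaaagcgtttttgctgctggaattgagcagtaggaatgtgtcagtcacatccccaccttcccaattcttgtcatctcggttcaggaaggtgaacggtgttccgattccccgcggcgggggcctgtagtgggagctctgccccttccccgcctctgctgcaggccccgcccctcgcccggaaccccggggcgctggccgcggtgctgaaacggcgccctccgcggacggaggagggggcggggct
SLC29A1: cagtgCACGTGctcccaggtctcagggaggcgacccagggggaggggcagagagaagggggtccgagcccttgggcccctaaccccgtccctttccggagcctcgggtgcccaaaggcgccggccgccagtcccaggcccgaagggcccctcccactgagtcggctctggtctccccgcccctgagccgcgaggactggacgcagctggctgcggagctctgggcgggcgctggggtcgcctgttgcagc
BCL6: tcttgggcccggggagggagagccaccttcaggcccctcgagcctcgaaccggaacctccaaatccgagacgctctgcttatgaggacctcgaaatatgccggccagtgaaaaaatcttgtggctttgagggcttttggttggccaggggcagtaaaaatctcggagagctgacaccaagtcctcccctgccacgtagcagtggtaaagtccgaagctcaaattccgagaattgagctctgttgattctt
ZNF836: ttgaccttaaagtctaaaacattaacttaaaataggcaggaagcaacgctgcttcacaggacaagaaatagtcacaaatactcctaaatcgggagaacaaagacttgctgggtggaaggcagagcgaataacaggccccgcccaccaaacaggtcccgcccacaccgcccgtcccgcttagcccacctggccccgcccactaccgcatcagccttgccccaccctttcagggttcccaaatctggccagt
S100A3: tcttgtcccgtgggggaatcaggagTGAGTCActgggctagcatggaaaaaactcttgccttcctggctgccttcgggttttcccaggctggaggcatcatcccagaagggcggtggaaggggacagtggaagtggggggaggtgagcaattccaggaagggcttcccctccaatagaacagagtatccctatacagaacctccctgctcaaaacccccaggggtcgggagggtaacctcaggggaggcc
ZFYVE27: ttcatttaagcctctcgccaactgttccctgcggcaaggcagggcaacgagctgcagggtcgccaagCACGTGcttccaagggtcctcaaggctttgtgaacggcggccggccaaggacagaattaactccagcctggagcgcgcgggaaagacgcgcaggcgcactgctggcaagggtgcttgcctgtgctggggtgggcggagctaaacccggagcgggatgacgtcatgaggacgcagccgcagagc
DHX40: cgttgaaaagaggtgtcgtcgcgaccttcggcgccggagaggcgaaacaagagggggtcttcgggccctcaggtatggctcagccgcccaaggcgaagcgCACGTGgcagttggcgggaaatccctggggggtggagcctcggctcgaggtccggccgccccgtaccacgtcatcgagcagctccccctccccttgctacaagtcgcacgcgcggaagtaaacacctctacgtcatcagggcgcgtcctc

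The ZBTB38 window lies at chr3:141368254-141368503 on the plus strand, and the 3A summit fell 358 bp after this start, one of several starts that RefSeq gives for the gene. Its TGACTCA begins 66 bases before the start. The LHFPL5 window (chr6:35805102-35805351 on the plus strand) had its 3A summit 64 bp before the start and held neither motif. The SLC29A1 window (chr6:44219365-44219614 on the plus strand) was the single protein-coding one with a CACGTG, which begins 245 bases before the start, and the 3A summit lay 256 bp before it. The BCL6 window (chr3:187745469-187745718 on the minus strand) and the ZNF836 window (chr19:52171622-52171871 on the minus strand), with summits 192 and 39 bp before the start, held neither. The S100A3 window (chr1:153549259-153549508 on the minus strand) had TGAGTCA beginning 225 bases before the start and its summit 270 bp before it. The ZFYVE27 window (chr10:97736878-97737127 on the plus strand) holds CACGTG at 183 bases before the start under a 3A fold enrichment of 171.7, and the DHX40 window (chr17:59565360-59565609 on the plus strand) at 150 bases under 153.8. The windows of the other two of these 4, PGK1 and UTP11, held none in the bases before the start.

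Counted over whole windows, 28 protein-coding windows shared at least 1 bp with a region of the mutants. Some regions met more than 1 window, as at ZBTB38, at UBB and at the pair GGN and SPRED3, and the intervals treat windows as separate. Some overlaps were small, 11 bp at EFEMP2 and 36 bp at SORT1, and 23 windows shared at least 150 bp. CACGTG was in 1 of these 28, or 3.57% (95% interval 0.0904 to 18.3), against 11.03% (10.5 to 11.6) of the 11242 windows under peaks of all 3 lists and 8.34% of all 22132 protein-coding windows. Among windows under peaks of all 3 lists that were about as strong as the 453, it was 4.75% (3.78 to 5.89, n = 1662), inside the interval of the mutant regions, so a difference was not detectable with 28 windows. TGANTCA was in 2 of the 28 (7.14%, 0.877 to 23.5), against 4.07% (3.72 to 4.46) under peaks of all 3 lists and 6.15% of all windows. CACGCG or its reverse complement CGCGTG, a variant E-box, was in 1 of 28 (3.57%, 0.0904 to 18.3), the window of GGN. Under peaks of all 3 lists it was in 20.6% (19.9 to 21.4). It was in 13.6% (12.0 to 15.3) under those of like strength and in 14.2% of all windows, both inside the interval of the mutant regions. Any other CANNTG was in 16 of 28 (57.1%, 37.2 to 75.5), against 52.3% and 61.6%. These motifs read alike on both strands, except the variant, which was searched in both forms, and CANNTG was counted without CACGTG. The windows table used does not cover all genes. The median window held 17.5 CpG, against 28 under peaks of all 3 lists, 26 under those of like strength and 21 over all windows. A motif in a window is a description of its letters and not a bound site.

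The regions were weak in both lists, which is a description and not independent of how they were chosen. Fold enrichment, the authors' linear ratio of coverage over background at the summit, had a median of 6.93 in 3A (2.91 to 37.96) and 7.17 in 7A (2.80 to 41.7). Peaks found in all 3 lists had medians of 11.9 in 3A (n = 23522) and 11.6 in 7A (n = 23275). The median −log10 q was 32.2 in 3A and 39.3 in 7A, against 75.1 and 100.2 for peaks of all 3 lists, and the median width 343 and 384 bp, against 640 and 709 bp. The lowest −log10 q was 9.18 in 3A and 8.97 in 7A, near the bottom of both lists, and 449 of the 453 had at least 10 in both. Peaks of 3A alone (n = 801) had a median fold enrichment of 6.89 and width of 316 bp, and those of 7A alone (n = 411) 7.02 and 339 bp.

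The share of such peaks fell along the ranking of each list, which is likewise not independent of the choice. In 3A they made up 4.99% of the weakest 10% by −log10 q (136 of 2728, 4.20 to 5.87) and 0 of the 2730 peaks of the strongest 10%, for which the interval reaches 0.135%. In 7A their partners made up 6.24% of the weakest 10% (157 of 2515, 5.33 to 7.26) and 1 of 2516 in the strongest. Seen from the 7A list, 444 peaks (1.76%) had a 3A and no WT partner. Without a WT partner were 4.59% of the whole 3A list and 3.4% of the whole 7A list, and 87.8% of the 3A peaks had a 7A partner. In 3A 54 of the 453 ranked above the median of the list, in 7A 30, and in both lists 20. Of these 20, 6 lay within 1000 bp of a WT peak and 2 at a gene end.

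**Figure D1:**
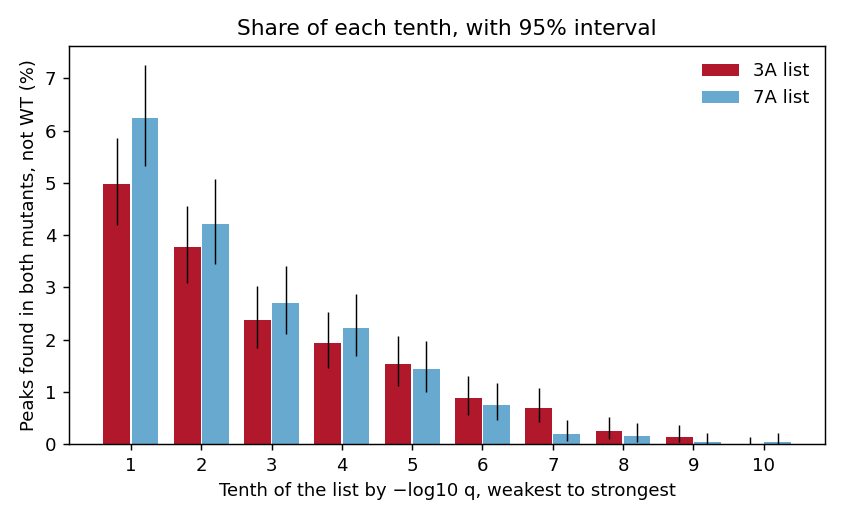
Share of the 3A list taken up by the 453 regions (red) and of the 7A list taken up by their partners (blue), in %, over 10 equal parts of the list from the lowest to the highest −log10 q, with 95% binomial intervals. It is 4.99% in the weakest part of 3A and 6.24% in that of 7A, and at most 0.256% in the strongest 3.

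The same regions were placed closely alike in both mutants. Each of the 453 had exactly 1 partner in the 7A list. The summits lay a median of 18 bp apart, and 373 pairs (82.3%, 78.5 to 85.7) were within 50 bp, as were 84.9% of the pairs among peaks of all 3 lists (84.4 to 85.4). Across the 453 regions, which come from 1 list each, the log10 fold enrichments of the lists were related with a Pearson r of 0.583 and a Spearman correlation of 0.536. Neither list was higher throughout: 222 of 453 (49.0%, 44.3 to 53.7) had the higher fold enrichment in 7A. The peak inside RIOK1, which encodes a kinase of ribosome maturation, had 16.96 in 3A and 34.8 in 7A (chr6:7414813-7415099). The peak at the start of ZBTB7B, a zinc finger repressor known as ThPOK in T cells, had 20.1 in 3A and 7.66 in 7A. Each list has its own scale, so these pairs are values side by side.

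**Figure D2:**
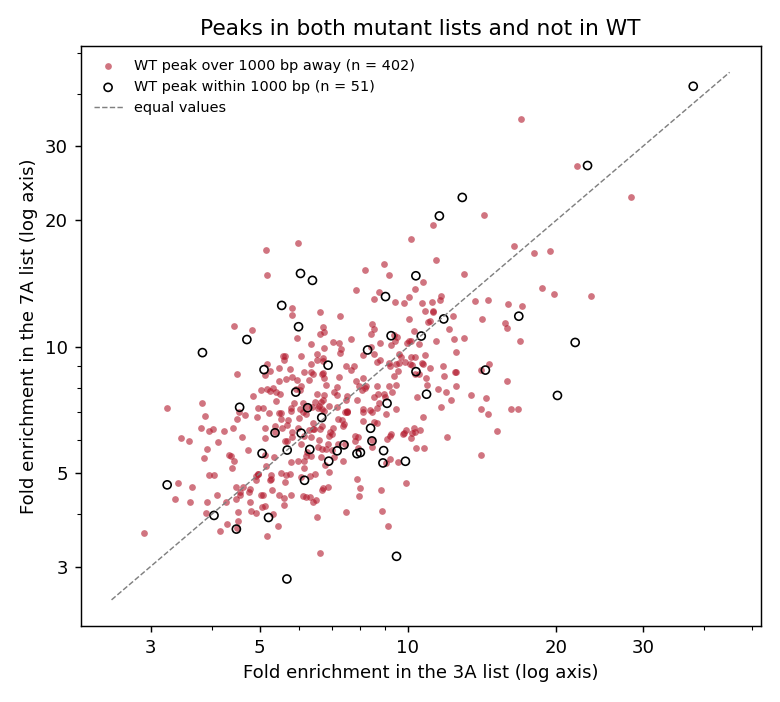
Fold enrichment of the 453 regions in the 3A list (horizontal) and the 7A list (vertical), both on log axes, as the authors gave them. Filled points lie over 1000 bp from any WT peak (n = 402), open circles within 1000 bp (n = 51), and the points spread on both sides of the dashed line of equal values, with 222 above it.

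Absence from the WT list did not place a region far from WT peaks. The gap to the nearest WT peak had a median of 10808 bp (27 to 517665). A WT peak lay within 1000 bp for 51 regions (11.3%, 8.50 to 14.5) and within 10000 bp for 220 (48.6%, 43.9 to 53.3). Peaks of 3A alone had a WT peak within 10000 bp in 42.9% of cases (39.5 to 46.5) and those of 7A alone in 40.1% (35.4 to 45.1). For 38 of the 51, the neighbouring WT peak was itself overlapped by other peaks of both mutants, and for 31 of the 51 it had the higher fold enrichment in its list than the region had in 3A. For 14 of the 453 the 7A partner overlapped a WT peak although the 3A peak did not. Nearest to WT was a peak at chr16:10871662-10871964, 27 bp from a WT peak, with a fold enrichment of 3.82 in 3A and 9.69 in 7A. Next came one within 1000 bp of an outer end of METTL22, a lysine methyltransferase gene (chr16:8622074-8622269), 69 bp away, with 4.71 in 3A and 10.4 in 7A. That peak also shared the fewest bases with its 7A partner, 173. Just outside the rule, a peak at chr1:226739147-226739356 shared 139 bp with WT and had 5.95 in 3A and 6.73 in 7A, and a 3A peak at chr21:29130657-29131136 missed its nearest 7A peak by 194 bp and had 10.1 in 3A.

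Farthest from WT was a region of chromosome 7 (chr7:9719355-9719680), 517665 bp from any WT peak and 966544 bp from the nearest protein-coding gene end, that of NXPH1. It was named after its values were seen. Its fold enrichment of 28.4 in 3A and 22.7 in 7A was above the upper quartiles of the regions, 9.52 and 9.31. Its −log10 q was 128.6 in 3A and 90.3 in 7A, the latter below the median of the whole 7A list, 91.0. In all, 23 regions lay over 100000 bp from any WT peak.

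Most regions lay away from gene ends. A summit at most 1000 bp from an end of a protein-coding gene was found for 42 of 453 (9.27%, 6.76 to 12.3), while 215 (47.5%) were inside a gene and 196 (43.3%) outside. Over the whole 3A list 37.7% were at a gene end. Peaks of all 3 lists had 41.8% at gene ends (41.1 to 42.4, n = 23520), 29.3% inside and 29.0% outside. The difference was also present at like strength: between the quartiles of the regions' −log10 q, 22.7 to 47.6, 10.1% of them (6.53 to 14.8, n = 227) and 29.2% of the peaks of all 3 lists (28.0 to 30.4, n = 5662) were at gene ends. Width was not matched. Peaks of 3A alone had 10.2% (8.24 to 12.6, n = 800) and those of 7A alone 9.73% (7.04 to 13.0, n = 411). The low share was thus not particular to the regions of both mutants. It was not counted for 3A peaks with a WT but no 7A partner, so it is not tied here to the lack of a WT partner. Of the 51 regions within 1000 bp of a WT peak, 16 were at a gene end (31.4%, 19.1 to 45.9), against 26 of the other 402 (6.47%, 4.27 to 9.33). At an end of a lncRNA gene and of no protein-coding gene were 6.62% of the regions (4.51 to 9.32) and 6.16% of the whole 3A list.

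**Figure D3:**
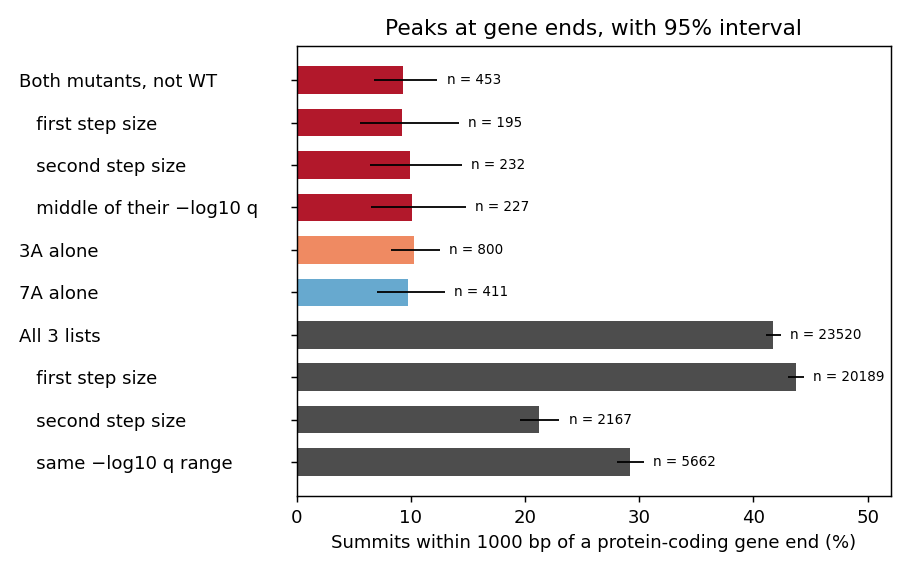
Share of summits at gene ends, up to 1000 bp from the end of a protein-coding gene, in %, with 95% binomial intervals and the number of peaks. Regions of both mutants (red) lie between 9.23% and 10.1% in all 4 bars, next to 3A alone and 7A alone, while peaks of all 3 lists (grey) lie between 21.2% and 43.8%.

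With annotated starts in place of gene ends, chromosome 8 left out, 7.51% of the regions (32 of 426, 5.19 to 10.4) and 39.98% of the peaks of all 3 lists had a summit within 1000 bp of a protein-coding start. The median distance was 45722 bp for the regions and 9611 bp for the peaks of all 3 lists. Where the window table gave the strand, the gene end was the start of the gene for 24 of 30 regions (80.0%, 61.4 to 92.3), against 96.9% (96.5 to 97.3) of 8218 peaks of all 3 lists and 82.0% (70.0 to 90.6) of 61 peaks of 3A alone.

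**Figure D4:**
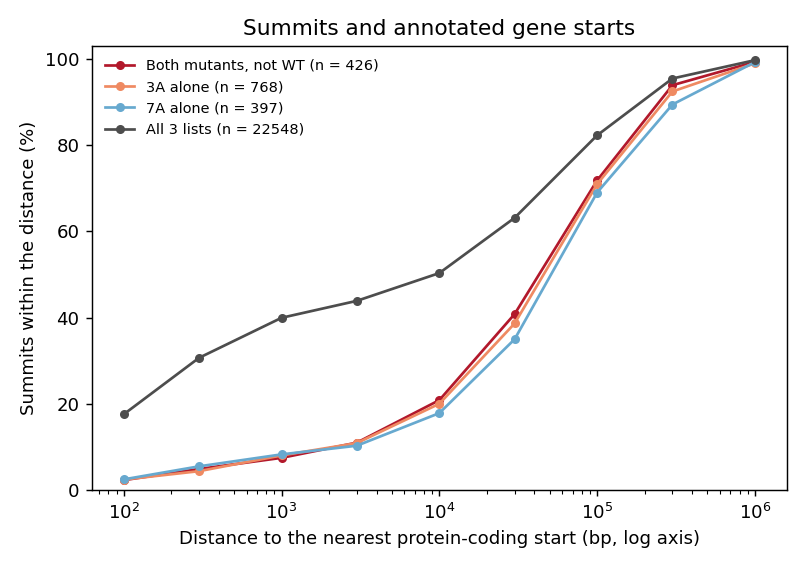
Percentage of summits within a given distance (bp, log axis) of the nearest annotated protein-coding start, for regions of both mutants, 3A alone, 7A alone and peaks of all 3 lists, chromosome 8 left out. At 1000 bp the regions of both mutants are at 7.51% and the peaks of all 3 lists at 39.98%, and the curves of the 3 mutant sets run close together.

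The strongest regions away from outer gene ends were ranked by the lower of their percentile ranks of −log10 q in the mutant lists. They were led by the one inside ZBTB38, a zinc finger protein that binds methylated CpG (chr3:141368005-141369150). Its summit was not far from a start, as it lay 358 bp after an annotated start inside the gene. A WT peak of fold enrichment 33.9 lay 314 bp from the ZBTB38 region and was overlapped in both mutant lists. A region of chromosome 8 (chr8:37144674-37145124), 208796 bp from KCNU1, had 23.2 in 3A and 27.0 in 7A and lay 937 bp from a WT peak of 25.1. Inside SLC1A4, a neutral amino acid transporter gene, the values were 10.4 in 3A and 14.8 in 7A, with a WT peak of 13.4 at 214 bp. Thus the 3 strongest of this group by that ranking stood beside WT peaks of similar fold enrichment, although each list has its own scale. By fold enrichment the order differs: the region nearest to NXPH1 had 28.4 in 3A and 22.7 in 7A, 517665 bp from WT.

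Those inside other genes stood farther from WT. Inside COL4A2, which encodes a chain of the collagen IV of basement membranes, a region at chr13:110447984-110448556 had 23.5 in 3A and 13.2 in 7A, 28238 bp from WT, and the gene held 2 more regions. Inside IL18RAP, a subunit of the interleukin 18 receptor, the values were 7.83 in 3A and 13.6 in 7A, 47807 bp from WT. Inside MYLK, the myosin light chain kinase gene, they were 9.41 in 3A and 12.8 in 7A, 7639 bp from WT. Between genes, regions nearest to HS6ST1 (11.3 in 3A and 19.4 in 7A), GADL1 (16.8 in 3A and 11.8 in 7A, 569 bp from WT), CCDC86 (10.8 in 3A and 9.58 in 7A) and SQOR (18.0 in 3A and 16.8 in 7A) completed the strongest 10. Of these 10, 5 were inside a gene and 4 within 1000 bp of a WT peak.

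At gene ends, 20 regions led, at 22 genes, and many again had a WT peak close by: 10 of the 20 lay within 1000 bp of one, and 13 of the 22 genes had a WT peak at one of their own ends. LOC124903470, a gene of no assigned role here, had 11.6 in 3A and 20.5 in 7A, 186 bp from WT (chr15:39579629-39580077). PTPRH, a receptor tyrosine phosphatase gene, had 12.9 in 3A and 22.7 in 7A, 227 bp from WT. CIC, a repressor downstream of RAS and ERK signalling, had 6.40 in 3A and 14.4 in 7A, 428 bp from WT. ZBTB7B stood 296 bp, ZNF33B 178 bp and CCN4, a matricellular protein gene of the Wnt pathway, 513 bp from WT.

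Farther from WT at gene ends were the following. LHFPL5, a part of the mechanotransduction channel of hair cells, had 9.47 in 3A and 9.12 in 7A, and no WT peak lay in the gene or within 2500 bp of it. SLC29A1, the nucleoside transporter ENT1, had 6.63 in 3A and 10.7 in 7A, 1280 bp from WT. BCL6, a transcriptional repressor of germinal centre B cells, had 5.80 in 3A and 11.9 in 7A, 4979 bp from WT. ADGRD1, an adhesion G protein-coupled receptor gene, had 8.22 in 3A and 8.05 in 7A, 3026 bp from WT. GADL1, an amino acid decarboxylase gene, had 7.94 in 3A and 8.09 in 7A, 123874 bp from WT. ZNF836 had 11.8 in 3A and 9.02 in 7A, 17397 bp from WT, and AHSP, the alpha haemoglobin stabilising protein gene, 7.32 in 3A and 9.89 in 7A, 20407 bp from WT. WIPF2, a regulator of actin assembly, had 7.19 in 3A and 7.18 in 7A. ZMIZ2 and PLEKHG2 carried the region at the end of the gene. By contrast, C19orf33, EFEMP2, the pair PSMA5 and SORT1 and the pair THUMPD2 and TMEM178A, each pair sharing 1 region, completed the 20 and lay between 395 and 704 bp from WT. LHFPL5, AHSP and ZNF836 were the 3 genes of the 22 with no WT peak in the gene or within 2500 bp.

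Over all gene ends, the 42 regions touched 47 of 19974 protein-coding genes (0.235%), where 55.5% had any 3A peak at an end. Of these 47, 21 (44.7%, 30.2 to 59.9) had a WT peak at an end, against 57.4% (56.7 to 58.1) of all protein-coding genes, and 30 (63.8%, 48.5 to 77.3) had one in the gene or within 2500 bp. UBB, a polyubiquitin gene (11.1 in 3A and 11.5 in 7A), PCDHB2, a clustered protocadherin gene (10.8 in 3A and 5.73 in 7A), and ZNF101 (10.2 in 3A and 9.03 in 7A) were among those with none, named after their values were seen.

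Genes of pathway and lineage lists, 674 in 19 lists, were looked for among them. Of 40 MYC growth targets, 13 MAX network genes, 40 cell cycle genes, 36 lysosome and autophagy genes, 27 stress genes, 32 immediate early genes and 13 further lists, none had such a region at an end, where 0.235% of all genes did, so this count is near the share over all genes and is no result about the lists. Of the 40 MYC growth targets 38 had a WT peak at an end. Taken by nearest gene, 33 regions belonged to 28 listed genes, and 2.13% of all genes were the nearest of at least 1 region. These genes were named after their values were seen. In the Hippo and YAP list they were 3 of 29: AMOTL2, which binds YAP (8.94 in 3A and 15.7 in 7A, 43012 bp away), LATS2, a kinase that restrains YAP (inside the gene, 6.54 in 3A and 9.62 in 7A), and FAT1 (inside, 6.24 in 3A and 5.63 in 7A). In the bone and cartilage list they were 3 of 32: RUNX2, the osteoblast regulator (7.38 in 3A and 6.47 in 7A, 86754 bp away), ALPL, the alkaline phosphatase of mineralisation (inside, 6.16 in 3A and 5.34 in 7A), and SOX9, the chondrocyte regulator (5.78 in 3A and 4.44 in 7A, 235627 bp away). Receptor tyrosine kinases gave 3 of 46 (PDGFRA, MST1R and IGF1R), Wnt signalling 3 of 45 (FZD10, TCF7L1 and ZNRF3) and immediate early genes 2 of 32 (FOSL1 and IER5). Matrix and adhesion gave 2 of 49 (COL4A2 and LAMA5), neuronal genes 2 of 50, chromatin regulators 2 of 51, and the MYC growth targets 1 of 40 (CCND2, 130654 bp away). MYC itself, in the MAX network list of 13, was the nearest gene of 2 regions, at 133972 and 206678 bp. The circadian, germline, stress and lysosome lists gave 0. Gene length and spacing were not matched in these counts.

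The regions were spread over all autosomes and the X chromosome, with a share of the 3A peaks between 0.822% on chromosome 4 (8 of 973, 0.356 to 1.61) and 2.35% on chromosome 8 (27 of 1147, 1.56 to 3.41). Most stood alone: 397 of the 453 had no other within 100000 bp, 25 groups held 2 and 2 groups held 3. In the closer group, upstream or downstream of HS6ST1, a heparan sulfate sulfotransferase gene, 3 regions lay within 18396 bp (chr2:128370374-128388769), with 11.3, 10.5 and 3.81 in 3A and 19.4, 8.61 and 7.34 in 7A. The other, of 97974 bp, ran from SPINT2, a protease inhibitor gene (10.3 in 3A and 13.7 in 7A), over C19orf33 (10.4 in 3A and 8.73 in 7A) to the shared start region of GGN and SPRED3 (3.24 in 3A and 7.17 in 7A).

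The coverage behind the peaks fell on 2 scales in each list. The coverage at each summit was solved from the authors' fold enrichment and −log10 p with the peak caller's formulas. In each list the solved coverages were whole multiples of 1 of 2 steps, a step being what 1 unit of the signal is worth. In 3A the first step was 0.689 (21744 peaks, 79.7%) and the second 0.947 (4206 peaks, 15.4%). In 7A they were 1 (87.4%) and 0.851 (4.19%), and in WT 0.696 (88.7%) and 0.742 (5.00%). The sources used here do not say which libraries or which Dox arm each step stands for.

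The regions of both mutants were rich in the second step. In 3A 232 of the 427 with solved coverage were on it (54.3%, 49.5 to 59.1), against 9.69% of the peaks of all 3 lists (9.31 to 10.1, n = 22358). Peaks of 3A alone had 69.5% (66.1 to 72.7, n = 757) and 3A peaks with a WT but no 7A partner 53.2% (51.2 to 55.2, n = 2408), so the high share was found in every class of 3A peak that missed at least 1 of the other lists. In 7A 75 of 412 partners were on the second step (18.2%, 14.6 to 22.3), against 3.33% of the peaks of all 3 lists (3.09 to 3.58). Within ranges of −log10 q the difference was also present in 3A. From 10 to under 20 the share was 33.3% of the regions of both mutants, against 16.2% of the peaks of all 3 lists. From 20 to under 30 it was 37.7% of the regions, against 19.6% of the peaks of all 3 lists. From 30 to under 50 it was 64.6% of the regions, against 16.8%, and from 50 to under 100 it was 74.7% of the regions, against 10.98%.

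**Figure D5:**
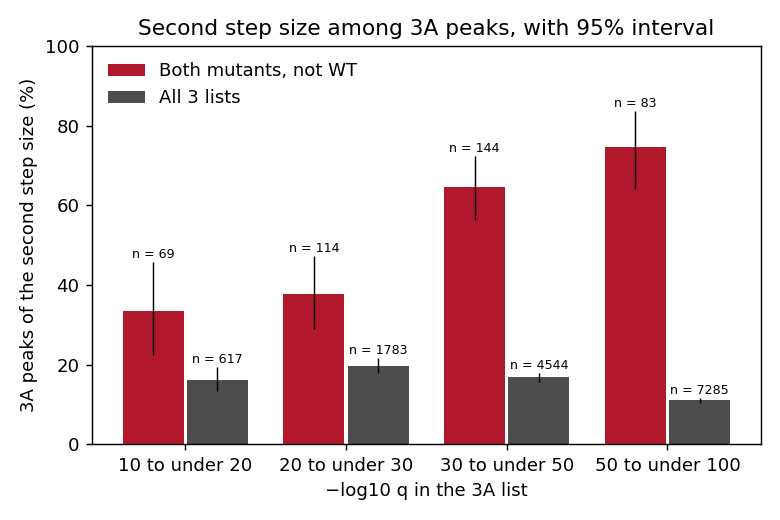
Percentage of 3A peaks whose summit coverage was a multiple of the second step, by range of −log10 q, for regions of both mutants (red) and peaks of all 3 lists (grey), with 95% binomial intervals and the number of peaks. The red bars run from 33.3% to 74.7% and lie above the grey ones, between 10.98% and 19.6%, in each range.

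The steps of a region in the 2 lists were in all 4 pairings: 148 regions were on the first step in both, 171 on the second in 3A and the first in 7A, 30 on the first in 3A and the second in 7A, and 41 on the second in both. These 4 sets had median fold enrichments of 6.93, 7.24, 7.53 and 6.89 in 3A and of 7.54, 7.16, 7.02 and 6.39 in 7A. Position did not differ with the step beyond the intervals: 9.91% of the regions on the second 3A step (23 of 232, 6.39 to 14.5) and 9.23% of those on the first (18 of 195, 5.56 to 14.2) were at gene ends, against 21.2% (19.5 to 23.01) and 43.8% (43.1 to 44.4) of the peaks of all 3 lists on the same steps. The median solved coverage was 65.3 in 3A over a background of 9.00, and 79.0 in 7A over 9.98. Peaks of all 3 lists had 108.2 over 8.44 in 3A and 148.0 over 12.1 in 7A. The part of the step in the choice of the regions was not tested.

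How many regions the rule finds depended on the peaks entered. With the 3A and the WT list both reduced to their strongest 25159 peaks, the length of the 7A list, 2688 regions met the rule in place of 453, 336 of them the same, and 21.5% (19.9 to 23.1) were at gene ends. With peaks of the first step alone in all 3 lists, 1504 met it, 148 of them the same, and 34.1% (31.7 to 36.5) were at gene ends. The first-step cut was chosen after seeing the data. Both cuts shortened the WT list, and a shorter WT list overlaps less by construction. The regions found after a cut and not among the 453 overlapped a WT peak of the full list.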

How the data were processed

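MAX was profiled by ChIP-Rx in U2OS cells with 3A, 7A or WT MYC (18 libraries, 3 deposited peak lists in the narrowPeak layout). Per the submitters' processing notes, the tools were MACS2, Picard, SAMtools, Bowtie2 and cutadapt and the builds mm10, hg38 and hg19, with no version or role stated. The sources used here do not say whether replicates were pooled or what served as control. The deposited score equalled the rounded-down 10-fold of the authors' −log10 q for 99.8% of 3A, 99.6% of 7A and 99.6% of WT peaks. Fold enrichment is the authors' linear ratio at the summit, and −log10 p and −log10 q are as deposited. The peak lists name no build; positions were read as hg38, since 37.7% of 3A summits lay within 1000 bp of a gene end of that build, and count from 1. The depth of the libraries is unknown. Peaks sharing at least 1 bp counted as overlapping. The gene table (RefSeq, GRCh38.p14) gives outer gene ends; starts and strand came from its promoter windows. All gene names of the 19 lists matched. Coverages were solved with MACS2's formulas (pseudocount 1) for 99.5% of 3A, 97.6% of 7A and 99.7% of WT peaks, and given to a step within 3% of it or left out where both fitted. Tested on simulated data, all 800 planted regions were found, 1715 of 2000 summits gave 1 coverage, each of them right, and 1389 of 1389 steps were right. The regions, lists and rules were chosen with earlier results of these data known. Named are the 20 strongest gene-end regions by the lower of their percentile ranks of −log10 q in the mutant lists, the 10 strongest others, listed genes with a region at an end, the regions nearest the limits of the rule, and groups of at least 3 within 100000 bp. Calculations used SciPy 1.17.1, NumPy 2.4.6 and pandas 2.3.3, and plots matplotlib 3.10.9, under Python 3.11.15. The nearest-gene count of 1 list is not reported here.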

Additional observations from a re-analysis of the deposited data

How the results depend on the processing

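Of 33 alternatives, 23 left their value within the interval of the main one or, for counts, within 1.5 times. With lists of equal length there were 2688 regions in place of 453, 21.5% of them at gene ends in place of 9.27%, and their median fold enrichment in 3A was 8.02 in place of 6.93; this shortened the WT and the 3A list at once, and a shorter WT list overlaps less by construction. With the first step alone in all lists there were 1504 regions and 34.1% at gene ends. This too shortened the WT list. Taking 3A peaks of the first step alone left 195 regions and those of the second 232, which splits the regions by construction. Requiring no WT peak within 1000 bp left 402 regions, 6.47% of them at gene ends. With a gene-end window of 2500 bp, 15.7% of the regions and 83 genes in place of 47 were at gene ends. The share with CACGTG was 4.35% with windows sharing at least 150 bp. The steps, annotated starts, peaks of like strength and promoter windows were chosen after seeing the data. The planned search for E-boxes in 100 and 400 bp around summits needs a genome sequence and was not run. No paired analysis was possible because the lists carry no replicates. The weak peaks limit what can be said: absence from the WT list is absence at its threshold, not absence of MAX.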
